A study of Mus musculus with 20 samples.

Results

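The genes described here are 48 axon guidance genes of the ephrin, semaphorin, netrin and Slit systems. They were taken as a list of symbols, with no use of measured values: 5 ephrin-A and 3 ephrin-B ligands, 6 EphA and 5 EphB receptors, 6 class 3 and 8 other semaphorins, 5 plexins, 2 neuropilins, 2 Slit and 2 Robo genes, and Ntn1 with its receptors Unc5b, Unc5c and Dcc. All 48 were found among the 55573 genes of the deposited count table. RNA-seq was carried out on embryoid body (EB) cultures, aggregates in which pluripotent cells begin to differentiate, made from 4 mouse induced pluripotent stem cell (iPSC) lines. The lines were 2 wild type lines, WT#1-4 and WT#20D-17, and 2 lines lacking the NADPH oxidase gene Nox4, Nox4-/- #5-8 and Nox4-/- #5-23. Each line was picked as a single colony from mouse embryonic fibroblasts reprogrammed with retroviruses carrying Oct4, Sox2, Klf4 and c-Myc, so it stands for 1 clone, and all of them were kept on mitotically blocked fibroblast feeder cells. Each line gave 1 library on each of days 0, 3, 5, 7 and 14 of differentiation, 20 libraries in all, and these 5 days are given in that order wherever a run of 5 values follows. EBs were formed by hanging drop aggregation without LIF. Whether day 0 was the iPSC culture or the EB is not stated for these libraries, so day 0 may lie before LIF was withdrawn. In the study's embryonic stem cell experiment day 0 was the stem cells themselves. The labels name day 10 as the last day in their protocol and day 14 in the sample titles, and day 14 was used. No inducer or inhibitor is given for any of these libraries, and the study's methods describe the fibroblasts as isolated from midgestation CF-1 embryos, without naming the strain of the Nox4-/- mice separately.

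Guidance cues were first studied in growing axons, where they attract or repel the tip of the cell, and the same molecules position cells in blood vessels, somites and epithelia. Ephrins sit on the surface of one cell, the A class on a lipid anchor and the B class through a transmembrane domain, and activate Eph receptor tyrosine kinases on the neighbour, with signals running in both directions. Class 3 semaphorins are secreted and act through plexins, mostly with neuropilins as the ligand-binding partner, while most other semaphorins stay on the membrane and bind plexins directly. Slit proteins are secreted ligands of Robo receptors, and netrin-1 is a laminin-related secreted cue that attracts through Dcc and repels through Unc5 receptors.

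The targeted gene was examined first. Nox4 had 3 to 22 counts in the WT#1-4 libraries, 56 to 203 in WT#20D-17, 0 to 2 in Nox4-/- #5-8 and 0 in every Nox4-/- #5-23 library. Total counts ran from 20294968 to 27708023 per library, so that 1 CPM (the unit of level used here, a count divided by the TMM-adjusted library size) rested on about 24 counts, with a 95% Wilson interval of 0.675 to 1.5 CPM that covers counting error only. WT#20D-17 stood apart from the other lines in its cell type markers. From day 0 to day 14 the summed level of 8 pluripotency markers went from 3586 to 93.9 CPM in this line. The sums were 5767 and 1287 CPM for WT#1-4, 3085 and 1880 CPM for Nox4-/- #5-8, and 4395 and 3680 CPM for Nox4-/- #5-23. The pluripotency marker Zfp42 was at 0 in every library of the last 3 of these lines. Genes of chromosome 5, which holds 7 of the guidance genes, had a median log2 ratio of 0.56 over WT#1-4 in Nox4-/- #5-23, relative to all genes, and 0.00 in Nox4-/- #5-8.

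Of the 48 genes, 44 had a mean of at least 1 CPM over the 20 libraries and 31 a mean of at least 10 CPM. The 4 below 1 CPM were Epha3, Epha5, Sema3d and Dcc, and Dcc, the attractive netrin receptor, had at most 3 counts in 18 of 20 libraries. Epha3 reached 2.47 CPM in WT#20D-17 on day 14 and at most 0.152 CPM in any other line, and Epha5 did not exceed 0.472 CPM. Per kilobase of exon, which allows levels to be set side by side between genes, the semaphorin receptor Plxnb2 had the highest mean, 49 CPM per kb. It was followed by Plxna1 with 23.2, Epha2 with 18.7, Ephb4 with 17.8 and the ligand Efnb1 with 15.5 CPM per kb. Each gene's range over the libraries overlapped that of its neighbour in this order, in 47 of 47 neighbouring pairs. The secreted ligands of the Slit family were low, with 1.18 CPM per kb for Slit3 and 0.167 for Slit2, as were the class 3 semaphorins Sema3a (0.163) and Sema3d (0.104).

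**Figure D1:**
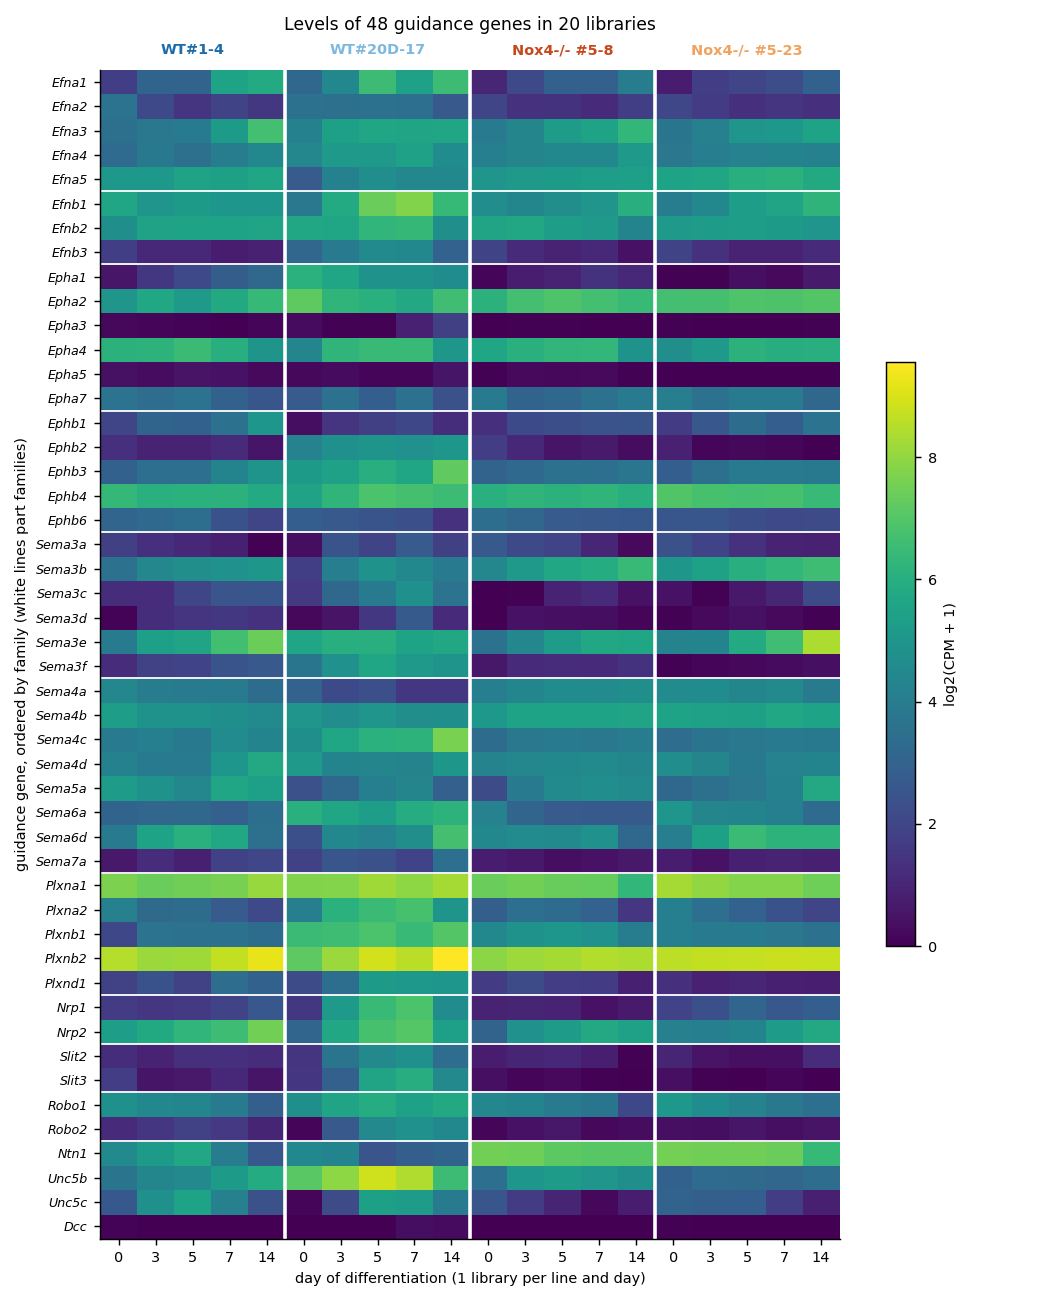
Levels of the 48 guidance genes (rows, by family) in the 20 libraries (columns, by line and day), as log2(CPM + 1) in colour. Plxnb2 is bright in every column, Ntn1 is bright in the 10 Nox4-/- columns, and Nrp1, Slit3, Robo2 and Unc5b are brightest in WT#20D-17.

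The change over days was tested with the 4 lines as replicates, each line kept as a block, in 45 of the 48 genes that passed the expression filter; Epha3, Epha5 and Dcc did not. Between day 0 and day 14, 12 guidance genes rose and 1 fell at an FDR (Benjamini-Hochberg adjusted p) under 0.01. Those that rose were the ligands Efna1, Efna3 and Efna4, the receptors Ephb1 and Ephb3, the semaphorins Sema3b, Sema3c, Sema3d, Sema3e, Sema3f and Sema4c, and the co-receptor Nrp2; Ephb6, an Eph receptor without kinase activity, fell. The 12 are 26.7% of the 45 tested, where 14.3% of all 18474 genes tested rose, and the 1 that fell is 2.22%, where 13.5% of all genes fell. The median log2 change was 0.47 over the 45 genes and 0.04 over all genes. An F test over all 5 days called 8 of the 45 (17.8%), against 17.3% of all genes, so by this test the guidance genes were called about as often as other genes. Leaving out 1 line at a time, 7 of 45 rose without WT#1-4, 12 without WT#20D-17, 6 without Nox4-/- #5-8 and 7 without Nox4-/- #5-23. In the same order 1681 of 17850, 3131 of 17021, 1636 of 18156 and 1312 of 18155 genes rose. The F test called 2, 12, 1 and 1 of the 45, Efna1 in each case, and 1428, 3978, 1085 and 624 of all genes. Without the day 14 library of WT#20D-17 alone, 12 rose and 2 fell, where 2828 and 2566 of 18333 genes did. The low share of falls depended on the fit. With DESeq2 7 of 47 fell (14.9%), where 2827 of 21894 genes did. Without WT#20D-17 6 of 45 fell (13.3%), where 2708 of 17021 genes did. None fell without WT#1-4, Nox4-/- #5-8 or Nox4-/- #5-23, where 1544, 1766 and 1255 genes did. In the same interval 5 parietal endoderm markers summed to 570 CPM on day 0 and 2602 CPM on day 14 in WT#1-4, and to 1100 and 46772 CPM in WT#20D-17. The same sums were 244 and 1142 CPM for Nox4-/- #5-8 and 412 and 1407 CPM for Nox4-/- #5-23, with none of the 5 at 0 in any line. Their part in these changes, and that of the falling pluripotency markers, was not tested, and in these bulk libraries fewer cells of a type and less RNA per cell cannot be told apart.

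Among the ephrin-A ligands, 3 of 5 rose and none fell. Efna1, a ligand induced by inflammatory signals and abundant in endothelium and epithelia, had the largest fitted change of any guidance gene. Efna1 stood at 2.39, 7.39, 7.31, 45.1 and 56.6 CPM in WT#1-4 and at 8.12, 21, 93.4, 43.4 and 91.6 CPM in WT#20D-17. Efna1 levels were 1.04, 3.31, 6.65, 6.65 and 15.1 CPM in Nox4-/- #5-8 and 0.669, 2.43, 3.02, 3.82 and 6.85 CPM in Nox4-/- #5-23. Every line rose, and in each Nox4-/- line the day 14 level stayed below that of both wild type lines. The fitted change from day 0 to day 14 was 3.87 ± 0.46 (log2, SE; FDR 1.19e-05, edgeR's quasi-likelihood test), and it kept its direction and passed the threshold in each of 10 alternative fits. Efna3, a neighbour of Efna1 and Efna4 in the ephrin-A cluster of chromosome 3, was the ephrin-A ligand with the highest level per kb. Efna3 stood at 10.5, 13.3, 14.9, 36.3 and 103 CPM in WT#1-4 and at 17.4, 41.9, 48.3, 46.4 and 48.5 CPM in WT#20D-17. Efna3 levels were 14.1, 19.2, 38.3, 45.2 and 78.8 CPM in Nox4-/- #5-8 and 12, 17.1, 30.4, 33.3 and 45.3 CPM in Nox4-/- #5-23. Each line was higher on day 14 than on day 0 and the levels of the genotypes overlapped; the change was 2.44 ± 0.35 (log2, SE; FDR 4.81e-05, edgeR's quasi-likelihood test). Efna4 rose less, by 0.80 ± 0.22 (log2, SE; FDR 0.00863), and passed the threshold in 5 of 10 alternatives. Efna3 and Efna4 each share exon bases with a gene on the other strand, and the sources used here do not state whether counting used strand.

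The other ephrin-A ligands did not pass the test. Efna2, which the study lists among its axon guidance genes, was highest in WT#1-4 on day 0 and in the first 4 libraries of WT#20D-17. Efna2 stood at 11.4, 3.26, 1.79, 2.88 and 1.93 CPM in WT#1-4 and at 10.8, 10.4, 10.7, 10.2 and 5.3 CPM in WT#20D-17. Efna2 levels were 3.03, 1.59, 1.64, 1.2 and 2.46 CPM in Nox4-/- #5-8 and 3.05, 2.15, 1.44, 1.69 and 1.53 CPM in Nox4-/- #5-23. It was lower on day 14 than on day 0 in 4 of 4 lines, with a fitted value of -1.26 ± 0.39 (log2, SE; FDR 0.0151). Efna5 had 0.69 ± 0.23 (log2, SE; FDR 0.0247) and was higher on day 14 in 4 of 4 lines. None of the 3 ephrin-B ligands passed. Efnb1, the ephrin-B ligand with the highest level per kb, is X-linked and acts at boundaries between cell groups. Efnb1 stood at 48, 30.9, 36.1, 31.4 and 31.2 CPM in WT#1-4 and at 13.3, 56.5, 164, 215 and 83.7 CPM in WT#20D-17. Efnb1 levels were 24.9, 19.8, 25.3, 30.5 and 63.5 CPM in Nox4-/- #5-8 and 15, 21.1, 39.7, 46.9 and 73.6 CPM in Nox4-/- #5-23. It peaked in WT#20D-17 on day 7, was higher on day 14 in 3 of 4 lines and did not pass, with 1.17 ± 0.53 (log2, SE; FDR 0.0884). Efnb2, a marker of arterial endothelium, ran from 18.9 to 80.9 CPM over the 20 libraries. Efnb3 had its higher levels in WT#20D-17, between 6.93 and 23.1 CPM, and at most 2.9 CPM elsewhere.

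Of the EphB receptors, 2 of 5 rose and 1 fell. Ephb1, on the study's list as well, had its highest level in the wild type line WT#1-4. Ephb1 stood at 3.04, 7.55, 6.9, 11.2 and 31.8 CPM in WT#1-4 and at 0.287, 1.68, 2.53, 3.2 and 1.36 CPM in WT#20D-17. Ephb1 levels were 1.44, 3.4, 3.94, 4.48 and 4.54 CPM in Nox4-/- #5-8 and 2.27, 5.04, 9.3, 6.3 and 11.4 CPM in Nox4-/- #5-23. It was higher on day 14 than on day 0 in all 4 lines, with a change of 2.51 ± 0.43 (log2, SE; FDR 0.000248, edgeR's quasi-likelihood test), but its lowest levels were those of the other wild type line. Ephb3, a receptor of ephrin-B ligands that helps position cells in the intestinal crypt, rose from a higher level. Ephb3 stood at 6.8, 10.1, 10.1, 18.8 and 29.7 CPM in WT#1-4 and at 35.7, 43.6, 63.6, 49.2 and 150 CPM in WT#20D-17. Ephb3 levels were 7.19, 8.64, 11.2, 10.1 and 12.6 CPM in Nox4-/- #5-8 and 6.28, 10.5, 14.2, 14.5 and 13.6 CPM in Nox4-/- #5-23. The day 14 library of WT#20D-17 was the highest by far, and the change was 1.61 ± 0.27 (log2, SE; FDR 0.000221, edgeR's quasi-likelihood test). Ephb4, the venous partner of Efnb2 and the EphB receptor with the highest level per kb, was above 40 CPM in every library. Ephb4 stood at 80.4, 66.1, 67.1, 68.8 and 56.3 CPM in WT#1-4 and at 44.2, 74.5, 115, 107 and 91.9 CPM in WT#20D-17. Ephb4 levels were 65.4, 74.4, 69.9, 74.3 and 62.7 CPM in Nox4-/- #5-8 and 124, 108, 102, 109 and 86.5 CPM in Nox4-/- #5-23. Its highest levels were those of Nox4-/- #5-23 before day 14 and of WT#20D-17 on days 5 and 7, it did not pass, with -0.07 ± 0.22 (log2, SE; FDR 0.823), and it lies on chromosome 5. Ephb2 ran from 17.7 to 32.6 CPM in WT#20D-17 and did not exceed 2.36 CPM in any other line. Ephb6 fell by 1.11 on the log2 scale (SE 0.29; FDR 0.00593) and passed in 3 of 10 alternatives.

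No EphA receptor passed the test of day 14 against day 0 among the 4 tested. Epha2, a receptor for ephrin-A1 that is also expressed in pluripotent and epithelial cells, was the EphA receptor with the highest level per kb. Epha2 stood at 30.3, 51.6, 33.7, 54.9 and 83 CPM in WT#1-4 and at 144, 74.9, 66.3, 54 and 97.5 CPM in WT#20D-17. Epha2 levels were 68.9, 103, 122, 104 and 89 CPM in Nox4-/- #5-8 and 103, 105, 121, 117 and 128 CPM in Nox4-/- #5-23. It was highest on day 0 in WT#20D-17 and lowest on day 0 in WT#1-4, and its fitted change was 0.33 ± 0.31 (log2, SE; FDR 0.418). Epha4, a receptor that binds both ephrin classes, ran from 19.2 to 89.9 CPM and Epha7 from 4.15 to 15.9 CPM, each with changes of either sign among the 4 lines.

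**Figure D2:**
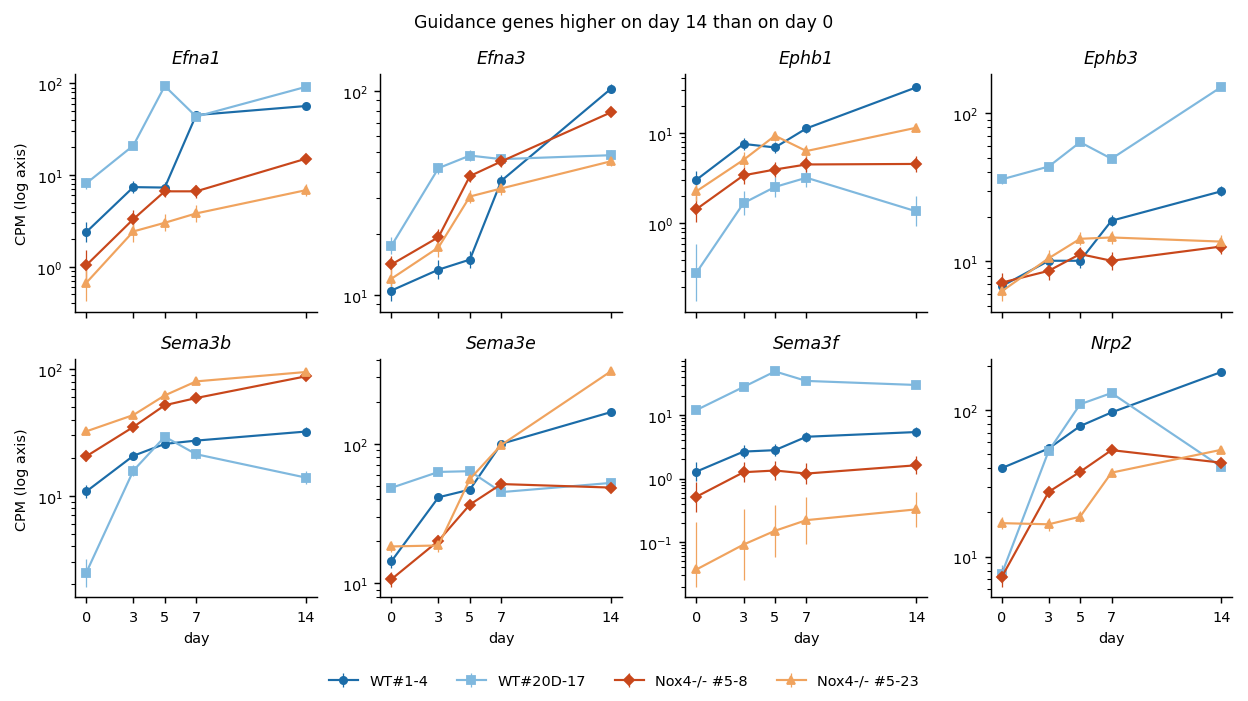
CPM on a log axis against day for 8 guidance genes that rose, 1 panel per gene and 1 line per iPSC line, with 95% Wilson intervals for counting error. Each of the 8 genes ends above its day 0 level in all 4 lines, and Efna1 and Sema3f lie lowest in the Nox4-/- lines.

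The class 3 semaphorins were the family with the most rises, 5 of 6. Sema3b, a secreted repellent first known as a growth suppressor, had the highest level per kb among them. Sema3b stood at 10.8, 20.7, 25.7, 27.3 and 32.2 CPM in WT#1-4 and at 2.46, 15.8, 29.3, 21.3 and 13.9 CPM in WT#20D-17. Sema3b levels were 20.5, 35, 52, 59.3 and 88.1 CPM in Nox4-/- #5-8 and 32.3, 43.5, 62.2, 80.3 and 95.3 CPM in Nox4-/- #5-23. It rose in every line, by 1.84 ± 0.31 (log2, SE; FDR 0.000237, edgeR's quasi-likelihood test), and passed in 10 of 10 alternatives. Sema3e, which repels endothelial cells through Plxnd1 without needing a neuropilin, reached the highest single value of the family. Sema3e stood at 14.4, 41.4, 47, 100 and 169 CPM in WT#1-4 and at 48.4, 62.9, 63.7, 45.1 and 52.5 CPM in WT#20D-17. Sema3e levels were 10.7, 20.2, 36.7, 51.5 and 48.6 CPM in Nox4-/- #5-8 and 18.4, 18.7, 55.9, 98.2 and 332 CPM in Nox4-/- #5-23. The rise was steep in 3 lines and almost absent in WT#20D-17, where log2(CPM + 1) changed by 0.11. The fitted change was 2.70 ± 0.56 (log2, SE; FDR 0.0011, edgeR's quasi-likelihood test), and Sema3e lies on chromosome 5, whose median was shifted in Nox4-/- #5-23, the line with the highest value. Sema3f, a ligand of Nrp2, was low in WT#1-4 and the Nox4-/- lines and higher in WT#20D-17. Sema3f stood at 1.29, 2.66, 2.8, 4.55 and 5.4 CPM in WT#1-4 and at 12, 27.7, 48.5, 34.4 and 29.7 CPM in WT#20D-17. Sema3f levels were 0.519, 1.26, 1.34, 1.2 and 1.62 CPM in Nox4-/- #5-8 and 0.0372, 0.0917, 0.151, 0.222 and 0.328 CPM in Nox4-/- #5-23. It rose in each line from very different starting levels, by 1.87 ± 0.31 (log2, SE; FDR 0.000171, edgeR's quasi-likelihood test). In Nox4-/- #5-23 the rise rested on 1 count on day 0 and 9 counts on day 14. Sema3c rose by 2.72 ± 0.74 (log2, SE; FDR 0.00755) from at most 1.97 CPM on day 0 and passed in 5 of 10 alternatives. Sema3d, a secreted semaphorin on chromosome 5, was the lowest of the called genes. Sema3d stood at 0.076, 1.39, 1.72, 1.93 and 1.54 CPM in WT#1-4 and at 0.164, 0.431, 1.92, 5.55 and 1.26 CPM in WT#20D-17. Sema3d levels were 0, 0.378, 0.306, 0.289 and 0.0927 CPM in Nox4-/- #5-8 and 0.0372, 0.183, 0.34, 0.178 and 0.0365 CPM in Nox4-/- #5-23. It had its highest level on day 7 in the wild type lines. Its fitted change was 3.05 ± 0.78 (log2, SE; FDR 0.00511), but the day 14 level exceeded day 0 in 3 of 4 lines only, with 0 and 2 counts on days 0 and 14 in Nox4-/- #5-8 and 1 and 1 in Nox4-/- #5-23, and it passed in 5 of 10 alternatives. Sema3a, the classical growth cone repellent, did not pass, with -2.50 ± 0.86 (log2, SE; FDR 0.0275), and was lower on day 14 in 3 of 4 lines.

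Among the 8 membrane-bound semaphorins 1 rose. Sema4c, a ligand of Plxnb2, was also the one with the highest level per kb. Sema4c stood at 14.9, 16.4, 13.4, 23.3 and 18.8 CPM in WT#1-4 and at 25.9, 49.1, 68, 70.9 and 198 CPM in WT#20D-17. Sema4c levels were 9.46, 13.2, 14.8, 13.1 and 15.3 CPM in Nox4-/- #5-8 and 9.66, 11.9, 13.1, 14 and 13.4 CPM in Nox4-/- #5-23. It ran from 9.46 to 23.3 CPM in 3 lines and was higher throughout in WT#20D-17, and its change of 1.19 ± 0.33 (log2, SE; FDR 0.0084, edgeR's quasi-likelihood test) was no longer called without the day 14 library of that line. Sema6d, Sema5a and Sema7a had fitted values of 1.76, 1.57 and 1.06 (log2) without passing, at FDRs of 0.0759, 0.0195 and 0.0998 by edgeR's quasi-likelihood test. Over the 20 libraries Sema6d ran from 3.98 to 107 CPM, Sema5a from 3.63 to 53 CPM and Sema7a from 0.268 to 10.2 CPM. Sema4b was the steadiest of them, from 22.7 to 51.3 CPM, while Sema4a, which acts on immune cells as well as axons, was lowest in WT#20D-17 with 1.89 to 7.13 CPM and had 9.47 to 20.2 CPM in WT#1-4. Sema4d, a ligand of Plxnb1, ran from 13.7 to 53.3 CPM, with its highest value in WT#1-4 on day 14. Sema6a was highest in WT#20D-17, from 40.2 to 71.2 CPM, and had 5.49 to 31.1 CPM in the Nox4-/- lines.

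None of the 5 plexins, the semaphorin receptors, passed. Plxnb2, a receptor of class 4 semaphorins, had the highest mean of all 48 genes both in CPM and per kb. Plxnb2 stood at 357, 275, 294, 412 and 606 CPM in WT#1-4 and at 144, 275, 478, 375 and 752 CPM in WT#20D-17. Plxnb2 levels were 237, 284, 311, 347 and 328 CPM in Nox4-/- #5-8 and 389, 410, 415, 447 and 431 CPM in Nox4-/- #5-23. It was higher on day 14 than on day 0 in 4 of 4 lines, though at 0.93 ± 0.28 (log2, SE; FDR 0.0138) it missed the threshold. Plxna1, one of the class A plexins, which pair with neuropilins, ran from 79.2 to 311 CPM over all lines. Plxnb1, the receptor of Sema4d, had 89.2 to 126 CPM in WT#20D-17 and from 3.23 to 31.1 CPM elsewhere, and Plxna2 had 15.9 to 108 CPM and from 1.85 to 17.1 CPM. Of the 2 neuropilins, Nrp2 rose. Nrp2 stood at 40, 54.5, 77.4, 95.9 and 181 CPM in WT#1-4 and at 7.58, 52.5, 109, 130 and 40.8 CPM in WT#20D-17. Nrp2 levels were 7.23, 27.6, 37.8, 53.1 and 43.6 CPM in Nox4-/- #5-8 and 16.9, 16.6, 18.7, 37.3 and 53.4 CPM in Nox4-/- #5-23. Its day 14 level exceeded day 0 in each line, a change of 2.11 ± 0.46 (log2, SE; FDR 0.00178, edgeR's quasi-likelihood test), and WT#1-4 had the higher level on every day but 5 and 7. Nrp1, which also binds VEGF, reached 115 CPM in WT#20D-17 on day 7 and at most 7.64 CPM in any other line.

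The Slit, Robo and netrin genes held no call over days. Robo1, the Slit receptor with the higher level per kb, was lower on day 14 than on day 0 in 3 lines and higher in WT#20D-17. Robo1 stood at 26.9, 20.8, 19.8, 13.8 and 6.4 CPM in WT#1-4 and at 25.8, 47.3, 58.8, 43.5 and 54.4 CPM in WT#20D-17. Robo1 levels were 20.4, 19.1, 14, 12 and 3.25 CPM in Nox4-/- #5-8 and 33, 24, 18.5, 13.3 and 10.3 CPM in Nox4-/- #5-23. From day 0 to day 14 log2(CPM + 1) changed by -1.92, 1.05, -2.33 and -1.59 in WT#1-4, WT#20D-17, Nox4-/- #5-8 and Nox4-/- #5-23, and the fitted value was -1.26 ± 0.41 (log2, SE; FDR 0.0205). Slit2 had 1.8 to 26.5 CPM in WT#20D-17 and at most 1.49 CPM elsewhere. Unc5b, a repulsive netrin receptor of endothelium, ran from 92.3 to 460 CPM in WT#20D-17 and from 6.84 to 57.7 CPM in the other lines.

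**Figure D3:**
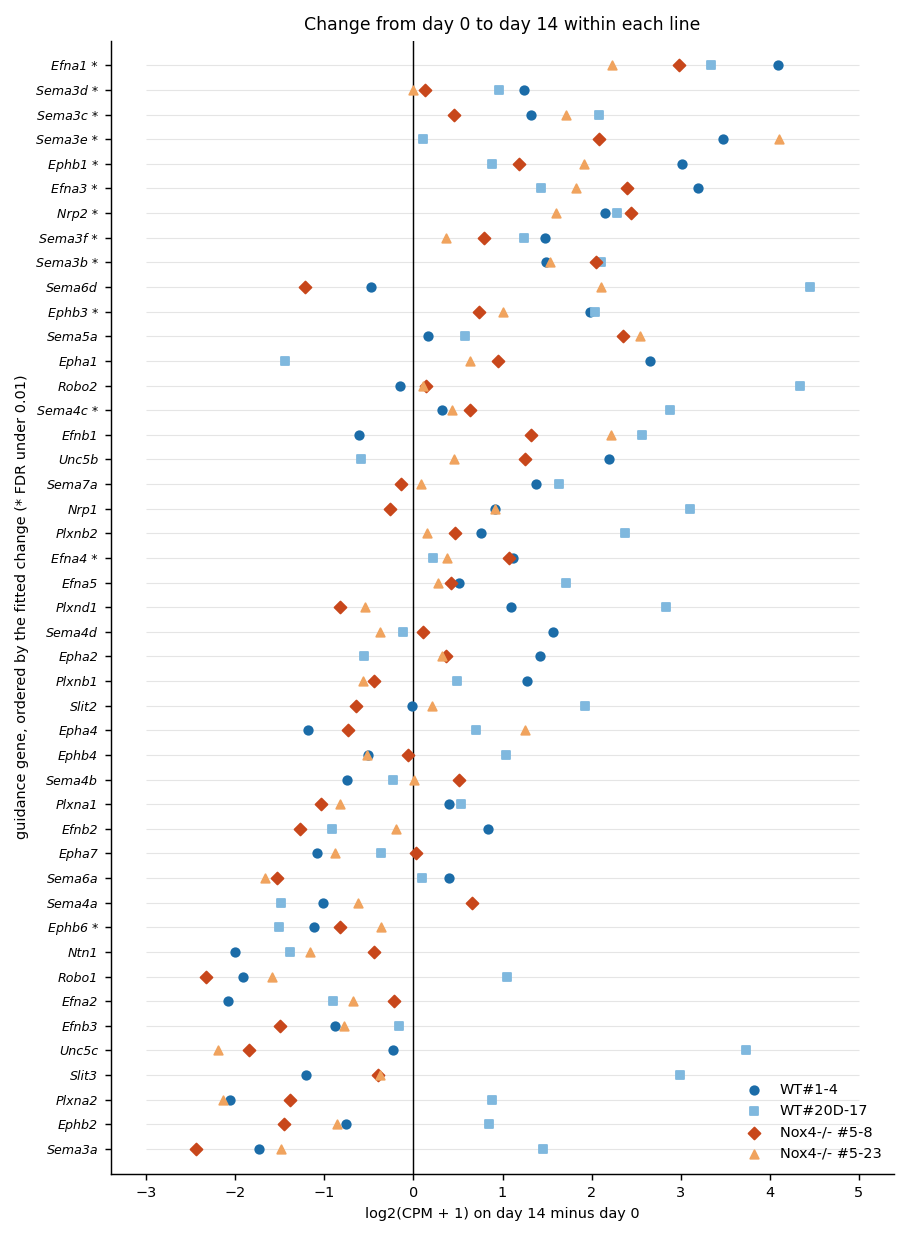
Change of log2(CPM + 1) from day 0 to day 14 within each of the 4 lines (points) for the 45 guidance genes tested, ordered by the fitted change, with an asterisk where the FDR was under 0.01. The points of Efna1, Efna3, Ephb1, Nrp2 and Sema3b lie to the right of 0 for every line, while for Robo2, Unc5c and Slit3 the point of WT#20D-17 lies far right of the rest.

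When the change took place was less clear. None of the 45 genes passed in the step from day 0 to 3, from 3 to 7 or from 7 to 14, where 30, 0 and 2 of the 18474 genes passed by edgeR's quasi-likelihood test. At an unadjusted p under 0.05 there were 9, 6 and 5 of the 45 guidance genes, where 2105, 3236 and 3129 of the 18474 genes had such a p. No other tool was run on the steps. The lowest FDRs were those of Sema3d in the first step (0.0694), Efna1 in the second (0.108) and Ephb3 in the third (0.187).

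The start regions of 5 genes that rose are shown as examples: Efna1, Ephb1, Ephb3, Sema3e and Nrp2. These genes, 1 ligand, 2 Eph receptors, 1 secreted semaphorin and 1 co-receptor, were higher on day 14 in all 4 lines and passed the test. Efna3, Efna4, Sema3c and Sema4c met the same conditions and are not shown. The regions shown are RefSeq windows of GRCm38.p6, 300 bases long, from 250 before to 50 after a transcript start, read in the direction of the gene, and hold the GENCODE start of each gene. Capitals mark GC boxes, GGGCGG or its reverse complement on either strand.
Efna1 (chr3:89280902-89281201, - strand): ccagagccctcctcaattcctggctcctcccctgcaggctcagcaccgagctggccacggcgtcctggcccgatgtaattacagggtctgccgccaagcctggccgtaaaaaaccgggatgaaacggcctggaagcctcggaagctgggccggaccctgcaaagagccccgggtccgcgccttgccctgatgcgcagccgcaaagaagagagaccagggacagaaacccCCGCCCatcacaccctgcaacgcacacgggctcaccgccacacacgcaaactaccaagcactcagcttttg
Ephb1 (chr9:102354644-102354943, - strand): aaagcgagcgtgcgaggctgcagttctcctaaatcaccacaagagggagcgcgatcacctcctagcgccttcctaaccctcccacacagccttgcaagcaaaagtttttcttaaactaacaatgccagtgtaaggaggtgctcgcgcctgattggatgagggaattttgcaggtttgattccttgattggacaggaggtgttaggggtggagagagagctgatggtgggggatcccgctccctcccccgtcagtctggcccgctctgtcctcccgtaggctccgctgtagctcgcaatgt
Ephb3 (chr16:21204545-21204844, + strand): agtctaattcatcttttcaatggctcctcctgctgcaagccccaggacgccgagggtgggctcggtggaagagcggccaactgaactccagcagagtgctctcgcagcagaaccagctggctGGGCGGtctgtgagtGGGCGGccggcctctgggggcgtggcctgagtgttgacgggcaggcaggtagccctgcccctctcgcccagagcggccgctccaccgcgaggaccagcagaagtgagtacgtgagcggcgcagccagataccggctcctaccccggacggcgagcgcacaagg
Sema3e (chr5:14025026-14025325, + strand): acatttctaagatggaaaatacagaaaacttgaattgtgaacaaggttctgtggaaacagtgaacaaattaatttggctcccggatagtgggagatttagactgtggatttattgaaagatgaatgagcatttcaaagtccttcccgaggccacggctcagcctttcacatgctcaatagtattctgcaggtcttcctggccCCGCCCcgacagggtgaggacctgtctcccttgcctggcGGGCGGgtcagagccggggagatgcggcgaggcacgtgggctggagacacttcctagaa
Nrp2 (chr1:62703067-62703366, + strand): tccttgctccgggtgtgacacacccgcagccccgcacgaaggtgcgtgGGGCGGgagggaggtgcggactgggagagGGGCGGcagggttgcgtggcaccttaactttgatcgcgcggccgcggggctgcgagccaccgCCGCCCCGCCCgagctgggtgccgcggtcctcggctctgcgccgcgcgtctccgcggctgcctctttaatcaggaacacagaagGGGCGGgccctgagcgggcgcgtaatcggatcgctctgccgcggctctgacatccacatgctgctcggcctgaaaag
Ephb1 had no GC box in its window, Efna1 had 1, Ephb3 and Sema3e had 2 each, and Nrp2 had 5. Windows were held for 41 of the 48 genes, 55 windows in all, and 39 of these (70.9%) held GGGCGG on either strand, where 35.7% of all 32851 windows did. TATAAA was in 2 of the 55 (3.64%) and in 13.6% of all windows, and ACGTG, the core of the hypoxia response element, in 10 (18.2%) and 19.6%. The AP-1 motif TGANTCA was in 2 of the 55 (3.64%) and in 7.81% of all. Ntn1, Efnb3, Sema3b, Sema3f, Sema6a, Plxna1 and Dcc had no window in the table.

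The question of what differs without Nox4 was addressed much as in the study. Its methods give an FDR threshold of 0.001 for edgeR and its figure legend 0.01. It reports more called genes than the 1903 of 33860 found here at 0.01. The days were pooled, and the 5 WT#1-4 libraries were compared with the 10 Nox4-/- libraries in edgeR's exact test. In this test 10 guidance genes were lower and 4 higher in the Nox4-/- lines at an FDR under 0.01, of 48 tested. Lower were the ligand Efna1, the receptors Epha1 and Epha5, the semaphorins Sema3d and Sema3f, the semaphorin receptors Plxnd1 and Nrp2, the ligand Slit3 and its receptor Robo2, and the netrin receptor Unc5c. Higher were Ntn1, Sema3b, Epha2 and Sema4b. The 10 are 20.8% of the 48, where 3.97% of all 33860 genes were lower, and the 4 are 8.33%, where 1.65% were higher. Many of the 33860 genes had hardly any reads: with edgeR's expression filter 6.13% of 16095 genes were lower and 3.81% higher, beside 9 and 4 of 44 guidance genes. The days of a line are not replicates of a genotype, so this test compares 1 wild type clone with 2 Nox4-/- clones. The count of lower genes fell to 1 without day 7, Robo2, to 4 without day 5, to 4 without day 14, to 5 without day 3 and to 4 without Nox4-/- #5-23, and that of higher genes was 2, 1, 2, 2 and 2. In the same order 810, 922, 1285, 897 and 996 of all 33860 genes were lower, and 304, 345, 570, 376 and 502 were higher. Without day 7 the 1 lower gene is 2.08% of the 48. With the summed counts of a line as the unit, 2 lines against 2, edgeR's quasi-likelihood test called none of 47 genes, with 15 at an unadjusted p under 0.05, and none of all 20229 genes, with 1628 at such a p. There edgeR's exact test called 1 (Ntn1), 2.13% where 0.613% of all genes were called, and DESeq2 called 7, 14.9% where 3.58% of all genes were.

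Ntn1, the secreted netrin cue, was the clearest of the higher genes. Ntn1 stood at 23, 36.3, 52.1, 15.1 and 5.01 CPM in WT#1-4 and at 20.8, 19, 4.79, 6.48 and 7.35 CPM in WT#20D-17. Ntn1 levels were 183, 173, 141, 135 and 135 CPM in Nox4-/- #5-8 and 188, 178, 176, 164 and 83.2 CPM in Nox4-/- #5-23. Each of the 10 Nox4-/- libraries lay above each of the 10 wild type libraries. It was the only guidance gene of 44 with a mean of at least 1 CPM for which this held, where 1.2% of 14579 such genes lay wholly above and 2.5% lay wholly above WT#1-4 alone. The mean was 156 ± 32.4 CPM (SD, n = 10 libraries) in the Nox4-/- lines. It was 26.3 ± 18.4 CPM (SD, n = 5 libraries) in WT#1-4 and 11.7 ± 7.59 CPM (SD, n = 5 libraries) in WT#20D-17. These SDs span the days of a line, which are not replicates of a genotype. The difference from WT#1-4 was log2 2.56 (FDR 2.25e-08, edgeR's exact test). That difference passed in 15 of 15 alternatives, between 2.43 and 3.73 on the log2 scale. Of its receptors, Dcc was near 0 in every line, Unc5b did not pass, at log2 -0.71 (FDR 0.472, edgeR's exact test), and Unc5c was lower.

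Unc5c, a repulsive netrin receptor on the study's list, had a peak on day 5 in each wild type line. Unc5c stood at 5.13, 26.7, 46.1, 16.7 and 4.21 CPM in WT#1-4 and at 0.123, 3.49, 42.5, 37.6 and 13.9 CPM in WT#20D-17. Unc5c levels were 4.95, 2.14, 0.994, 0.144 and 0.649 CPM in Nox4-/- #5-8 and 7.28, 6.51, 6.2, 2.31 and 0.802 CPM in Nox4-/- #5-23. The Nox4-/- lines had 4.95 and 7.28 CPM on day 0, no peak on day 5, and under 1 CPM on day 14. Over all days the difference from WT#1-4 was log2 -2.63 (FDR 0.00201, edgeR's exact test), and it passed in 10 of 15 alternatives. On the same day the Nox4-/- libraries were lower in 9 of 10 comparisons with WT#1-4 and in 7 of 10 with WT#20D-17. Unc5c shares 118 exon bases with Gm15688 on the other strand.

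**Figure D4:**
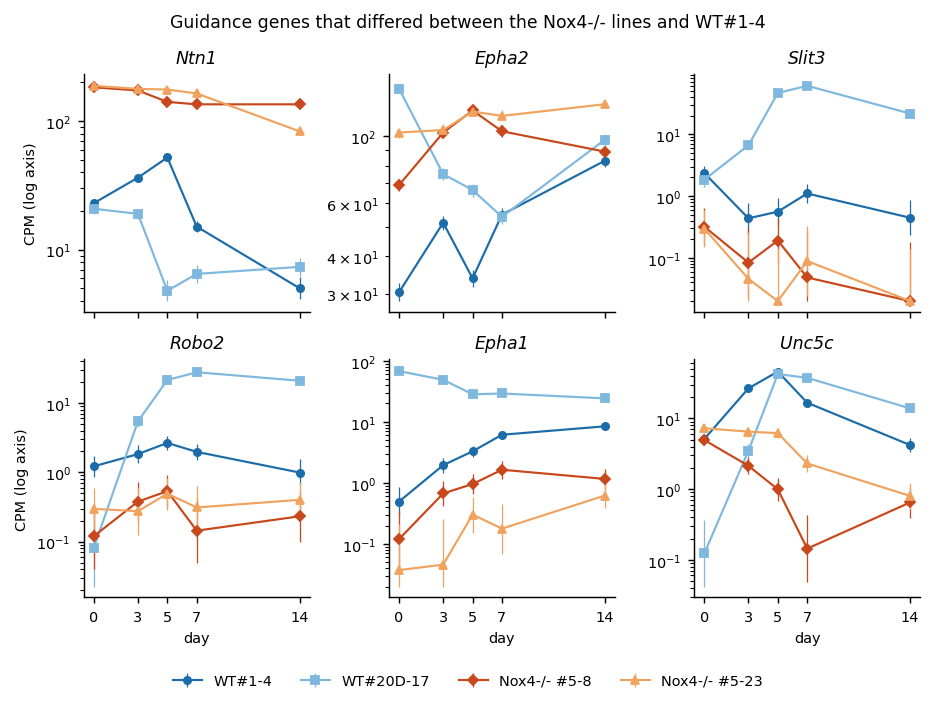
CPM on a log axis against day for 6 guidance genes called between the Nox4-/- lines and WT#1-4, with 95% Wilson intervals for counting error and values of 0 drawn at 0.02 CPM. Ntn1 is above both wild type lines in every Nox4-/- library, Slit3 below both, and the 2 wild type lines themselves part widely in Slit3, Robo2 and Epha1.

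Among the 44 genes with a mean of at least 1 CPM, Slit3 and Robo2, a secreted Slit ligand and a Slit receptor, were the 2 whose Nox4-/- libraries all lay below those of WT#1-4, where 3.4% of 14579 genes did so. Both reached that mean only through WT#20D-17, with 0.398 and 0.789 CPM over the other lines, so their count is a description. Epha5, which stayed under that mean, also lay wholly below, with 0 to 0.193 CPM in the Nox4-/- lines and 0.198 to 0.41 CPM in WT#1-4. Slit3 stood at 2.35, 0.437, 0.559, 1.1 and 0.446 CPM in WT#1-4 and at 1.84, 6.63, 46.4, 60.7 and 21.6 CPM in WT#20D-17. Slit3 levels were 0.319, 0.0839, 0.191, 0.0482 and 0 CPM in Nox4-/- #5-8 and 0.297, 0.0458, 0, 0.0888 and 0 CPM in Nox4-/- #5-23. Slit3 was low in WT#1-4 and all but undetected in the Nox4-/- lines, whose highest library had 0.319 CPM, so the difference of log2 -3.11 (FDR 0.000163, edgeR's exact test) rests on few reads. It passed in 14 of 15 alternatives. Robo2 stood at 1.22, 1.83, 2.65, 1.97 and 0.992 CPM in WT#1-4 and at 0.082, 5.43, 21.4, 27.7 and 20.9 CPM in WT#20D-17. Robo2 levels were 0.12, 0.378, 0.535, 0.144 and 0.232 CPM in Nox4-/- #5-8 and 0.297, 0.275, 0.492, 0.311 and 0.401 CPM in Nox4-/- #5-23. Robo2 was below WT#1-4 on every day and below WT#20D-17 on every day but day 0. Its levels in the Nox4-/- lines rested on 3 to 14 counts per library. The difference from WT#1-4 was log2 -2.41 (FDR 4.53e-09, edgeR's exact test), and it passed in 15 of 15 alternatives. Slit2 and Robo1 did not pass, with log2 values of -0.95 and -0.06 and FDRs of 0.244 and 1 in edgeR's exact test.

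In the ephrin system the ligand Efna1 and the receptors Epha1 and Epha5 were lower and Epha2 higher. Efna1, whose values are given above, was lower in 10 of 10 Nox4-/- libraries than in either wild type line on the same day. The same held for Epha1, Plxnd1, Sema3d, Sema3f and Slit3. These 10 libraries are the days of 2 clones, and no share over all genes was taken for the same-day counts given here. Against WT#1-4 Efna1 had log2 -2.26 (FDR 0.00778, edgeR's exact test). It passed in 8 of 15 alternatives, and in the test of the interaction of genotype and day its FDR was 1 (edgeR's quasi-likelihood test). Epha1, a receptor of epithelia, ran from 0.0372 to 67.6 CPM over the 20 libraries. Epha1 stood at 0.494, 1.95, 3.28, 6.14 and 8.43 CPM in WT#1-4 and at 67.6, 48.8, 28.2, 29.1 and 24.2 CPM in WT#20D-17. Epha1 levels were 0.12, 0.671, 0.956, 1.64 and 1.16 CPM in Nox4-/- #5-8 and 0.0372, 0.0458, 0.302, 0.178 and 0.62 CPM in Nox4-/- #5-23. Its level was higher on day 14 than on day 0 in WT#1-4 and lower in WT#20D-17, and both Nox4-/- lines were lower on each day, at log2 -2.82 (FDR 0.00156, edgeR's exact test), which passed in 10 of 15 alternatives. Epha1 shares 236 exon bases with Zyx on the other strand, and the range of Zyx itself was 27.6 to 40 CPM for WT#1-4, 70.7 to 171 CPM for WT#20D-17 and 13.9 to 29.7 CPM for the Nox4-/- lines. Whether reads of Zyx were counted as Epha1 was not tested. Epha2 had a mean of 106 ± 17.6 CPM (SD, n = 10 libraries) in the Nox4-/- lines. In WT#1-4 it was 50.7 ± 21 CPM (SD, n = 5 libraries), a difference of log2 1.07 (FDR 0.000226, edgeR's exact test). In WT#20D-17 it was 87.3 ± 35.4 CPM (SD, n = 5 libraries), against which Epha2 did not pass (FDR 0.416, edgeR's exact test). These SDs also span the days of a line. The call of Epha2 passed in 11 of 15 alternatives. Epha5, at log2 -2.33 (FDR 0.00712, edgeR's exact test), passed in 4 of 14. Efna2 and Ephb1, members that the study lists for axon guidance, did not pass, with log2 values of -1.10 and -1.21 (FDR 0.0808 and 0.109, edgeR's exact test). The study's list was drawn from genes that it called between genotypes and over days. Its genotype call of Efna2 and Ephb1 was thus not reproduced here against WT#1-4. Against WT#20D-17 Efna2 was lower, at log2 -2.26 (FDR 2.26e-12, edgeR's exact test). Ephb1 stood at log2 1.52 there and did not pass (FDR 0.0206, edgeR's exact test). The axon guidance list of the study was chosen on these libraries, so its 6 genes among the 48, of which 3 were lower and 1 higher, are not independent evidence of a direction.

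In the semaphorin system Sema3b and Sema4b were higher and Sema3d, Sema3f, Plxnd1 and Nrp2 lower. Sema3b was higher in 10 of 10 Nox4-/- libraries than in either wild type line on the same day, again without a share over all genes. Against WT#1-4 it stood at log2 1.28 (FDR 0.00583, edgeR's exact test) and Sema4b at log2 0.62 (FDR 0.00909, edgeR's exact test). These passed in 9 and 6 of 15 alternatives. Sema3f was lower in both Nox4-/- lines than in WT#1-4, at log2 -2.30 (FDR 0.00504, edgeR's exact test), and its receptor Nrp2 at log2 -1.52 (FDR 0.0029, edgeR's exact test), passing in 9 and 7 of 15 alternatives. Against WT#20D-17 Nrp2 did not pass, at log2 -1.12 (FDR 0.0557, edgeR's exact test). It was lower than that line in 7 of 10 Nox4-/- libraries on the same day. Plxnd1, the endothelial receptor of Sema3e, was at log2 -1.72 (FDR 0.00185, edgeR's exact test) and passed in 11 of 15, while Sema3e itself had a log2 value of -0.11 (FDR 1). The range of Plxnd1 was 2.7 to 9.78 CPM for WT#1-4, 3.57 to 35.6 CPM for WT#20D-17 and 0.729 to 3.57 CPM for the Nox4-/- lines. Sema3d, a chromosome 5 gene, had at most 0.378 CPM in the Nox4-/- lines and from 0.076 to 1.93 CPM in WT#1-4, and passed in 12 of 14. Summed markers of other cell types differed between WT#1-4 and the Nox4-/- lines as well, in both directions. The 10 fibroblast markers summed to between 142 and 271 CPM in WT#1-4 and to between 39.2 and 100 in the Nox4-/- lines, with none at 0 throughout. The 8 endothelial markers summed to between 342 and 583 CPM and to between 146 and 274, with Emcn at 0 in the Nox4-/- lines. The 5 neural crest markers were higher, from 16.3 to 25.9 CPM in the Nox4-/- lines and from 6.64 to 16.2 CPM in WT#1-4, with Sox10 at 0 in Nox4-/- #5-23. The 5 cardiac markers summed to 3.1 to 4.81 CPM in WT#1-4, 12.3 to 18.6 CPM in Nox4-/- #5-8 and 2.68 to 6.14 CPM in Nox4-/- #5-23, and Myh6 was at 0 in both Nox4-/- lines. The 4 smooth muscle markers summed to 7.67 to 71.5 CPM in WT#1-4, 2.24 to 23.9 CPM in Nox4-/- #5-8 and 2.27 to 3.63 CPM in Nox4-/- #5-23. WT#20D-17 did not share most of these differences. Its fibroblast sums ran from 28.4 to 3078 CPM and its endothelial sums from 26.7 to 443 CPM. Its neural crest sums ran from 5.6 to 31.8 CPM and its cardiac sums from 6.84 to 84.1 CPM. All of these overlapped the Nox4-/- lines, while its smooth muscle sums, 32.2 to 1033 CPM, lay above them. The sums of the remaining marker lists, neural among them, overlapped between WT#1-4 and each Nox4-/- line. The part of these markers in the genotype differences was not tested.

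The comparison was repeated with the other wild type line in place of WT#1-4. Against WT#20D-17, 24 guidance genes were lower and 5 higher in the Nox4-/- lines, 50% and 10.4% of 48, where 16% and 9.83% of all genes were. Efna1, Epha1, Sema3d, Sema3f, Plxnd1, Slit3, Robo2 and Unc5c were lower, and Ntn1, Sema3b and Sema4b higher, against each wild type line. The same Nox4-/- libraries enter both comparisons. How many of all genes were called against both lines was not counted, so this list is a description. Plxnb1 had log2 values of 1.06 against WT#1-4 and -2.42 against WT#20D-17, and Sema6a had 0.77 and -2.06.

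**Figure D5:**
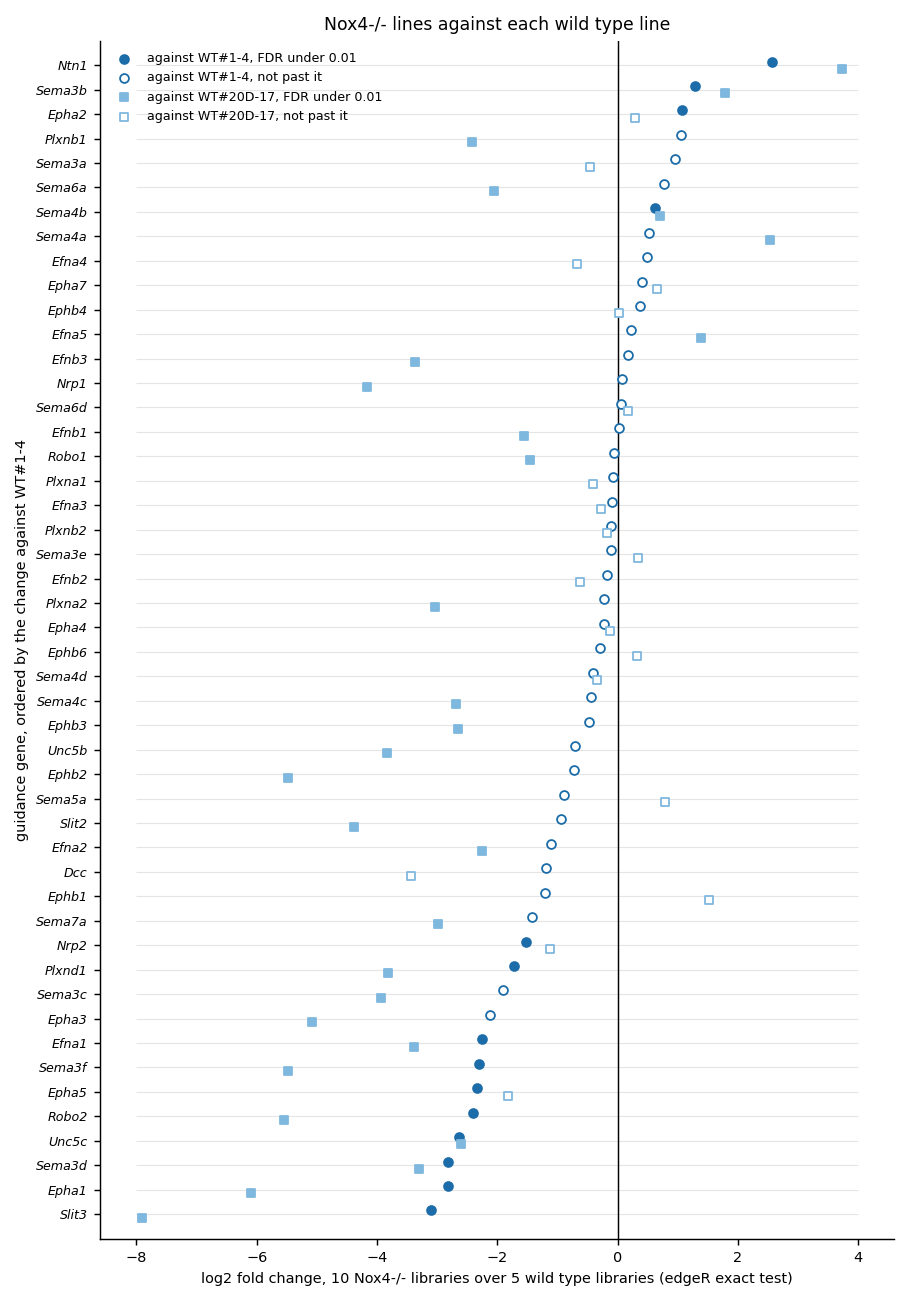
Log2 fold change of the Nox4-/- lines over WT#1-4 (circles) and over WT#20D-17 (squares) for the 48 guidance genes, filled where the FDR of edgeR's exact test was under 0.01. Filled circles number 14 and filled squares 29, the squares reach -7.91 at Slit3, and both marks lie right of 0 for Ntn1.

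The difference between the 2 wild type lines was tested directly. Of the 45 genes, 24 differed (20 higher and 4 lower in WT#20D-17), 53.3% where 39.8% of all genes did so, by edgeR's quasi-likelihood test with the days as blocks. The largest were Ephb2 at 4.96 ± 0.58, Slit3 at 4.93 ± 0.84, Nrp1 at 3.85 ± 0.69 and Epha1 at 3.82 ± 0.67 (log2, SE). Higher in WT#1-4 were Ephb1, Efna5, Sema4a and Sema5a. The 7 endoderm markers summed to between 133 and 1804 CPM in WT#20D-17 and to at most 4.63 CPM in any other line, and the 9 neural markers to between 53 and 198 CPM against at least 521; their part in these differences was not tested. Between the 2 Nox4-/- lines 1 of 45 genes differed, 2.22% against 3.55% of all genes. It was Sema3f, lower in Nox4-/- #5-23, with a difference from Nox4-/- #5-8 of -2.85 ± 0.31 (log2, SE; FDR 3.85e-05, edgeR). The Sema3f levels of Nox4-/- #5-23 rested on 1 to 9 counts per library.

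Whether the course over days differed between genotypes was tested as an interaction, with 2 lines of each. None of the 47 genes tested passed, where 2 of 19240 genes (0.0104%) did, by edgeR's quasi-likelihood test. DESeq2 called 1 of 44, Plxna1, and 1.37% of all genes. In edgeR's test 6 of the 47 had an unadjusted p under 0.05, as did 1391 of the 19240 genes. Without WT#1-4 the test called 5 of 46 (Nrp1, Robo2, Sema3b, Sema4c and Unc5c), 10.9% where 3.34% of 19946 genes were called, in which case WT#20D-17 alone stands for the wild type. On day 14 alone the same test called none of the 47, with 12 at an unadjusted p under 0.05, and 0.0156% of all genes, and without WT#1-4 it called 11 of 46 (23.9%) and 8.57% of all genes, the members being Epha1, Efna5, Ephb2, Plxnb2, Plxnd1, Robo1, Robo2, Sema3a, Sema4c, Slit3 and Unc5c. In the day 14 test with all 4 lines, 3471 of 19240 genes had an unadjusted p under 0.05. Between day 0 and day 14 both wild type lines moved one way and both Nox4-/- lines the other way in 5 of 44 guidance genes (Plxnd1, Sema6a, Plxna1, Plxnb1 and Sema4b), as did 7.22% of 14579 genes. A p that misses the threshold with 2 lines of each genotype does not show that the courses were alike.

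Guidance genes outside these 48 were counted too. Of 31 others (further Eph, semaphorin, plexin, netrin, Unc5, RGM and FLRT genes), 30 were tested over days, and 4 rose (13.3%) and 3 fell (10%), shares near the 14.3% and 13.5% of all genes. The netrin Ntn4 rose most, by 3.61 ± 0.31 (log2, SE; FDR 1.19e-06, edgeR). Between the Nox4-/- lines and WT#1-4, 3 of the 31 were higher and 3 lower, 9.68% each, where 1.65% and 3.97% of all genes were. With edgeR's expression filter the shares over all genes were 3.81% and 6.13%. The higher genes, Slit1, Sema6b and Unc5a, had at most 0.456, 0.795 and 0.0397 CPM in WT#1-4. Their medians were higher in WT#20D-17 than in either Nox4-/- line. Among the lower genes Epha8, an Eph receptor of the brain that the study's axon guidance list also holds, had 0.595 to 11.1 CPM in WT#1-4, 0.654 to 4.26 CPM in WT#20D-17 and 0 to 0.168 CPM in the Nox4-/- lines, at log2 -7.19 (FDR 9.63e-18, edgeR's exact test).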

How the data were processed

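RNA-seq was deposited for 20 libraries of mouse EB cultures from 4 iPSC lines, 1 per line and day, and sample groups were taken from the labels. WT#20D-17 is wild type by its labels, and the study's own genotype comparison names only the other 3 lines. The authors made stranded mRNA libraries, trimmed the paired-end reads, mapped them with STAR 2.6.0c to mm10 (GRCm38) and deposited RSEM 1.3.1 expected counts per gene without normalization. RSEM splits reads that fit several genes, so 9.92% of the values were not whole. The strand setting of RSEM is not given in the sources used here, and 9 of the 48 genes share exon bases with an antisense gene.

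Expected counts were rounded and analysed here in R 4.3.3 with edgeR 4.0.16 (limma 3.58.1) and DESeq2 1.42.0. CPM values used TMM factors over all libraries, and 1 was added before log2 of a single value. For the day effect, edgeR's quasi-likelihood test was run with line and day as factors after edgeR's expression filter. The genotypes were compared with edgeR's exact test on pooled days over 33860 genes with a nonzero value, as in the study's methods, then with the counts of each line summed, and as an interaction of genotype and day with the line as a block. The authors' EBSeq-HMM fit was not used. Calls are at an FDR under 0.01 over all genes tested. The line pairs libraries across days: the difference between the lines of a genotype, over 11522 genes, correlated between days at 0.42 to 0.917 in the Nox4-/- lines and 0.588 to 0.935 in the wild type lines. The labels do not name separate cultures within a line, so p-values measure only the spread between these libraries. No 2 libraries agreed within sampling noise: in the closest of 190 pairs the squared difference was 10.7 times the counting variance. Gene positions came from GENCODE M21 on GRCm38, which holds 55480 of the 55573 identifiers, and start regions from RefSeq on GRCm38.p6. The tests were tried on simulated data.

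Values in every library were given for the gene with the highest level per kb in each family, the 6 largest rises called by the F test over days and genes whose Nox4-/- libraries did not overlap WT#1-4, both restricted to genes averaging 1 CPM or more, and the 6 members that the study lists for axon guidance; Ephb3, the next rise, and Sema3d, under that mean, were named after their values were seen. The members, the lists of other genes and the tests were chosen with earlier results of these data known.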

Additional observations from a re-analysis of the deposited data

Results flagged for a closer look

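In 5 guidance genes both wild type lines moved one way between day 0 and day 14 and both Nox4-/- lines the opposite way, 5 of the 44 with a mean of at least 1 CPM, where 7.22% of 14579 genes did so. On the log2(CPM + 1) scale the mean change of the Nox4-/- lines minus that of the wild type lines was -2.65 for Plxnd1, -1.85 for Sema6a, -1.40 for Plxna1, -1.39 for Plxnb1 and 0.75 for Sema4b. Plxnd1 changed by 1.09 and 2.84 in WT#1-4 and WT#20D-17 and by -0.82 and -0.55 in Nox4-/- #5-8 and Nox4-/- #5-23. Sema6a changed by 0.40, 0.09, -1.53 and -1.67 in the same order of lines, Plxna1 by 0.40, 0.53, -1.04 and -0.83, and Plxnb1 by 1.28, 0.49, -0.44 and -0.57. Sema4b changed by -0.75, -0.23, 0.51 and 0.01. The difference itself did not pass in edgeR's quasi-likelihood test of the day 14 interaction alone, a test added after the data were seen, with FDRs of 0.111, 0.0786, 0.0828, 0.179 and 0.239 for Plxnd1, Sema6a, Plxna1, Plxnb1 and Sema4b. Without WT#1-4, when WT#20D-17 alone stands for the wild type, that test called 11 of 46 guidance genes, Plxnd1 among them and the other 4 not, 23.9% where 8.57% of all genes were called. No genotype and day had more than 2 libraries, so single outlying libraries were not tested for.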

How the results depend on the processing

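With the line as a replicate block 8, 12 and 1 guidance genes were called over days, higher on day 14 and lower on day 14; with no replicate block these were 2, 5 and 0, while the steps and the interaction stayed at 0. Leaving out 1 line gave 1 to 12 called over days, 6 to 12 higher and 0 to 6 lower. The count lower on day 14 was 7 with DESeq2, 8 at FDR 0.05 and 2 without the day 14 library of WT#20D-17. For the 10 genes lower in the Nox4-/- lines than in WT#1-4, the count was 3 with the quasi-likelihood test on pooled days, 4 without day 14, 5 without day 3, 4 without day 5, 1 without day 7, 3 at FDR 0.001, 24 when WT#20D-17 replaced WT#1-4 and 21 with both wild type lines; without 1 Nox4-/- line it was 4 to 9. For the 4 higher genes it was 2 with the quasi-likelihood test, 2, 2, 1 and 2 without days 14, 3, 5 and 7, 2 at FDR 0.001, and 2 to 5 without 1 Nox4-/- line. With the line as the unit DESeq2 called 7 and the exact test 1. For the interaction DESeq2 called 1 and leaving out 1 line gave 0 to 5. Between the Nox4-/- lines the exact test called 3, no filter on low counts 4, leaving out day 0 gave 4, leaving out day 14 gave 3, and FDR 0.05 gave 5. The causes of these differences were not tested. Other alternatives stayed within 1.5 times the reported count. None of the genes called changed direction: their pooled differences passed in 141 of 208 alternatives and their day 14 changes in 94 of 130. Among named genes not called, 11 of 120 pooled log2 differences changed sign: against WT#20D-17 alone Ephb1 stood at 1.52, Plxnb1 at -2.42, Sema6a at -2.06 and Sema3e at 0.34; with both wild type lines Plxnb1 stood at -1.54, Sema6a at -1.25 and Sema3e at 0.10; Sema3e was 0.01 and 0.02 without day 3 and day 7, and without 1 Nox4-/- line Sema3e ran from -1.16 to 0.53 and Robo1 from -0.35 to 0.20. Of 110 day 14 changes not called 3 did so: leaving out 1 line, Epha2 ran from -0.05 to 0.78 and Ephb4 from -0.34 to 0.08.

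The genotype comparisons rest on 2 lines each, and the wild type lines differ from each other in more of these genes than the Nox4-/- lines do. A level of 1 CPM rests on about 24 counts, and those of Epha5, Sema3d and, in the Nox4-/- lines, Slit3 on fewer.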

Other observations

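Genes that act inside the cell downstream of these receptors, such as the Src family kinases and the collapsin response mediator proteins, were called in both directions over days. Of 51 such genes, 50 were tested over days, and 7 rose and 7 fell between day 0 and day 14, 14% each, close to the 14.3% and 13.5% of all genes, with a median log2 change of 0.04 as over all genes. The kinase Src rose by 1.70 ± 0.18 (log2, SE; FDR 4.76e-06, edgeR's quasi-likelihood test), and Crmp1, a mediator of semaphorin signals, fell by 3.49 on the log2 scale (SE 0.63; FDR 0.000366, edgeR). Between the Nox4-/- lines and WT#1-4 1 of the 51 passed (1.96%, where 3.97% of all genes were lower), Pak1, with a log2 value of -0.81 (FDR 0.00762, edgeR's exact test).

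Of 6 proteases that release or cut guidance proteins at the membrane, Mmp14 rose over days and the matrix metalloproteinases Mmp2 and Mmp9 were lower in the Nox4-/- lines than in WT#1-4. Mmp2 ran from 73.2 to 183 CPM in WT#1-4, from 27.2 to 113 CPM in WT#20D-17 and from 1.81 to 7.24 CPM in the Nox4-/- lines, with a log2 difference from WT#1-4 of -4.78 (FDR 4.09e-54, edgeR's exact test).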
